A study of Mus musculus with 4 samples.

Results

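The aminoacyl-tRNA synthetases are 36 genes of the deposited table, chosen by symbol from a fixed list of family members, out of 54446 rows in all. Of the 36, 20 code for cytosolic enzymes and 16, all with symbols ending in 2, for mitochondrial enzymes. Each of the 36 symbols occurred on 1 row. With a mean of at least 1 FPKM (fragments per kilobase of exon, scaled for sequencing depth) over the 4 samples, 35 genes were tested, and Vars2 was below that level.

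An aminoacyl-tRNA synthetase joins 1 amino acid to its tRNAs, the step that fixes the genetic code before the ribosome reads a codon. Most animal cells use separate nuclear genes for the cytosol and for mitochondria, while a few genes, among them Gars and Kars, supply both compartments from alternative products. Several cytosolic enzymes are held in a multi-synthetase complex on scaffold proteins, and many cytosolic genes are known targets of ATF4, the transcription factor of the response to amino acid shortage and unfolded proteins.

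The samples were satellite cells, which are the muscle's own stem cells, taken from the hindlimb of C57BL/6 mice, cultured in F10 medium with HS and harvested 48 h after siRNA treatment. The LncMyoD knockdown group (siRNA against the long non-coding RNA LncMyoD) had 2 samples, and the control siRNA group had 2. The treatment protocol of the control samples carries the text of the knockdown samples, so the grouping rests on titles, descriptions and treatment tags. No age, sex or number of animals is given, and nothing says whether replicates were separate cultures, so p-values cover the spread of these 4 libraries alone, part of which may be technical. The targeted RNA was not analysed here, so the knockdown labels have no check of their own.

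The deepest library had 1.12 times the reads of the shallowest, and 1 FPKM on a transcript of 1 kb rests on 36.7 to 41.1 reads of 150 nt. Of the markers of muscle precursors, Myod1 stood at 583 and 667 FPKM with LncMyoD siRNA and at 698 and 691 FPKM with control siRNA, and Pax7, the factor of quiescent satellite cells, stood at 0.625 to 1.40 FPKM with LncMyoD siRNA and 0.859 to 1.02 FPKM with control siRNA. The leukocyte markers Ptprc, Adgre1 and Itgam and the endothelial marker Kdr were listed at 0 in every library, and each of the 5 Schwann cell markers stayed below 1 FPKM, with S100b at 0. The 5 endothelial markers summed to 1.34 to 2.68 FPKM in knockdown and 0.889 to 1.81 in control, and the 6 leukocyte markers to 2.14 to 3.14 in knockdown and 1.66 to 2.83 in control. The 6 markers of fibro-adipogenic progenitors summed to 30.8 to 31.9 FPKM in knockdown and 27.4 to 29.2 in control. Col3a1 made up most of this sum and had a log2 fold change of 0.25. Col1a1 went the other way, at -0.51, and neither gene had overlapping groups. The other 4, Pdgfra, Ly6a, Dcn and Lum, stayed below 1 FPKM in every library. Of 7 smooth muscle and pericyte markers, 4 were tested, all 4 had negative log2 fold changes, and 2 had an unadjusted p under 0.05 by limma. Of all genes tested, 45.2% were negative, and 2.7% were lower at that p. The summed level of the 7 was 2706 to 2781 FPKM in knockdown and 3145 to 3322 in control, most of it Acta2. Myh11, Rgs5 and Pdgfrb, 3 of the 7, stayed below 1 FPKM in every library, with Myh11 at 0 to 0.0337 and Rgs5 at 0 to 0.0981. Satellite cell and myoblast markers summed to 4080 to 4463 FPKM in knockdown and 5182 to 5463 in control. Most of that was Myog, the factor of differentiating myoblasts. Single markers differed in direction, with 5 of the 8 tested negative and 3 positive. Groups were apart for 3 lower genes and for 1 higher gene, Vcam1 (log2 fold change 0.20), where 16.3% of all genes tested lay below and 22.1% above. Set against the control mean, the median of the list changed sign between the knockdown libraries (-0.26, then 0.08). The part of these markers in the results below was not tested.

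Promoters were examined for the ATF4 composite element, since the cytosolic genes include many described ATF4 targets. The motif searched was TGATGNAA on both strands, in windows of 250 bases before to 50 after the start of each gene (RefSeq, GRCm38.p6), and 27 of the 36 genes had a window. It occurred in 5 of 13 cytosolic genes with a window, a share of 38.5% (Aars, Gars, Iars, Tars and Yars), in 0 of 14 mitochondrial genes, and in 4.51% of all genes with a window. All 5 were among the 8 cytosolic genes with a window that are described as ATF4 targets. Of the 5 cytosolic genes with a window outside that description, 0 had the motif. Of 28 ATF4 response genes with a window that are not synthetases, 9 had it (32.1%). In the 5 synthetase genes with the motif, it started between 112 bases before and base 10 after the start. The windows of the 4 with the lowest p are shown, since they place the element of the best described regulator of these genes beside its start, 5′ to 3′ on the strand of the gene, with the motif or its reverse complement in capitals.
Aars (chr8:111033592-111033891, plus strand): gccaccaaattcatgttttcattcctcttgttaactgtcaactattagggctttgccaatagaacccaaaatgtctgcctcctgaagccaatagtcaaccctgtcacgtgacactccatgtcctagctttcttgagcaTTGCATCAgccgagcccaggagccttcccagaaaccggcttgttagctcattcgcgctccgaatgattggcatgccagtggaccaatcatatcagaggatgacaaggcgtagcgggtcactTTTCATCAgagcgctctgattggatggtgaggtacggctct
Tars (chr15:11399609-11399908, minus strand): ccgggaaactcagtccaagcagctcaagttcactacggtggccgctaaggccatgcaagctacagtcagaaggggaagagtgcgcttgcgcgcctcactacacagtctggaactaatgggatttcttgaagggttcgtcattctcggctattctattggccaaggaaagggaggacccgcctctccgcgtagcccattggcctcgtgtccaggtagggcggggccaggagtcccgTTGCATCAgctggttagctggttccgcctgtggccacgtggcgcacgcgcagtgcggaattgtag
Gars (chr6:55037751-55038050, plus strand): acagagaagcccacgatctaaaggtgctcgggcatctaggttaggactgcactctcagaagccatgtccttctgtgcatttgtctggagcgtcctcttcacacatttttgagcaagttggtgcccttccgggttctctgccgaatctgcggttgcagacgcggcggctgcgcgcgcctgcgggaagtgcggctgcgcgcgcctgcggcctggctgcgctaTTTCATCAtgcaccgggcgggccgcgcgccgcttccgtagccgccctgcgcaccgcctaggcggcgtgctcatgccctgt
Yars (chr4:129189653-129189952, plus strand): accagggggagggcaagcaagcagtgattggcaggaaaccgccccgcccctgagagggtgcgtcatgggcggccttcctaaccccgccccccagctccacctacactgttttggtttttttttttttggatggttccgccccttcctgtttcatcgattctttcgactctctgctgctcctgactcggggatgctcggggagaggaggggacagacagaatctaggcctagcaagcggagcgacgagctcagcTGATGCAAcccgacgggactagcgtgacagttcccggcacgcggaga

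Aars holds the motif at 2 positions, starting 112 bases before and at base 10 after the start, and Tars and Gars hold it 15 and 30 bases before the start. Iars and Yars hold it from bases 8 and 4 after the start. Yars has it in the orientation as written, and the other 4 genes have its reverse complement. These starts are those of RefSeq. The gene spans given below are from GENCODE and can begin elsewhere, and that of Aars begins at 111033144, before the window shown. A match is a stretch of letters and not a measured binding site.

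Cytosolic synthetase genes were the abundant class in these cells. Their mean levels over the 4 libraries ran from 7.13 FPKM for Qars to 531 FPKM for Nars, with a median of 58.4 FPKM. Mitochondrial synthetase genes ran from 0.469 FPKM for Vars2 to 45.9 FPKM for Rars2, with a median of 3.77 FPKM. Nars, which charges asparagine tRNA, alone made up 31.2% and 26.8% of the summed cytosolic FPKM in knockdown, and 29.7% and 30.4% in control. The next cytosolic genes by mean level were Gars at 166 FPKM, Lars at 132 FPKM and Dars at 126 FPKM, for glycine, leucine and aspartate. In the mitochondrial class Rars2 stood apart, and Yars2 followed at 16.3 FPKM.

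**Figure D1:**
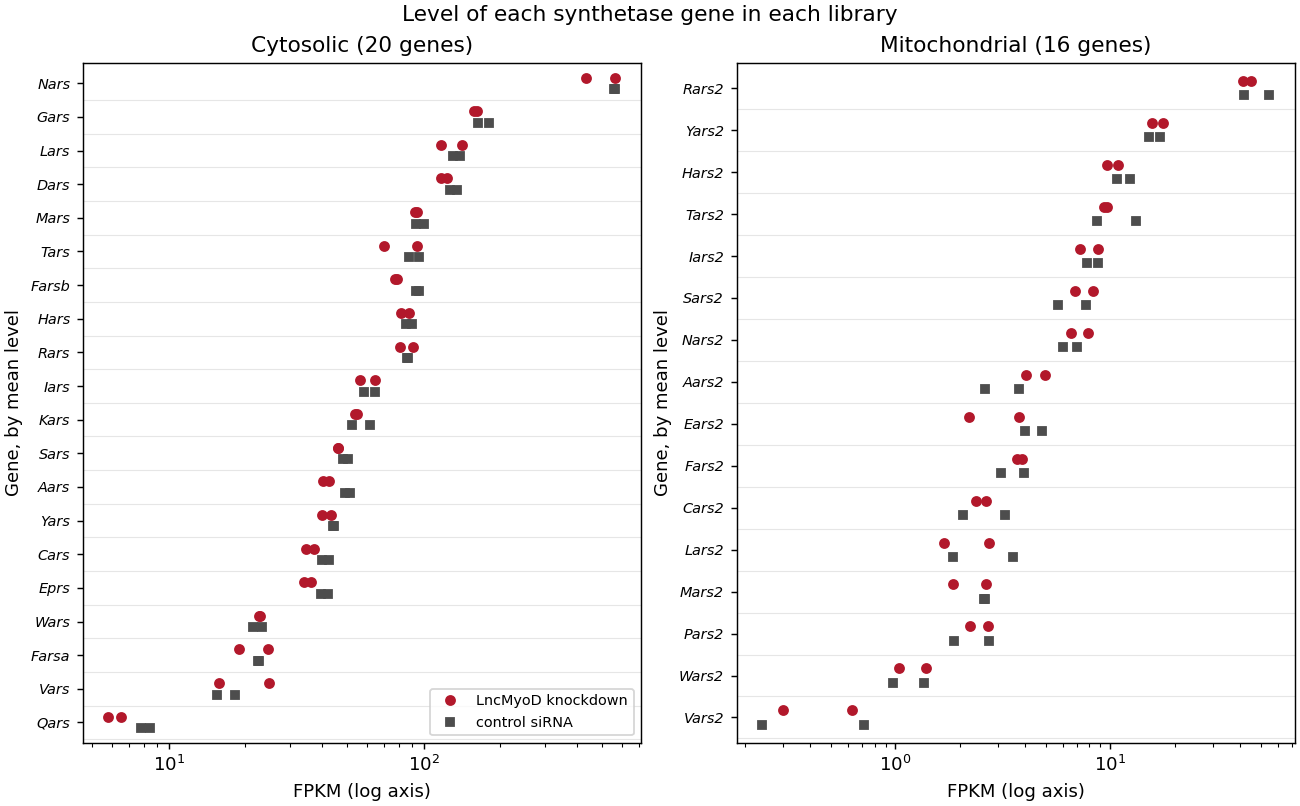
FPKM (log axis) of each of the 36 synthetase genes in each library, with cytosolic genes on the left and mitochondrial genes on the right, ordered by mean level; red circles are the 2 LncMyoD knockdown libraries and grey squares the 2 control siRNA libraries. Nars lies highest at 436 to 567 FPKM, and Rars2, at 41.3 to 54.9 FPKM, is the mitochondrial gene nearest the cytosolic median of 58.4 FPKM.

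None of the 35 tested synthetase genes passed an adjusted p of 0.05 (limma, Benjamini-Hochberg over 10900 genes), a count of 0 where 0.055% of all genes tested were called, 0.00917% higher and 0.0459% lower. The lowest adjusted p among them was 0.640, for Farsb. In simulated data the same fit called 1.94% of changes of 1.5-fold and 23.8% of changes of 2-fold at that threshold. A count of 0 therefore does not show that these levels were unchanged. At an unadjusted p under 0.05 limma had 2 of the 35, both cytosolic and both lower in knockdown, where 7.08% of all genes tested were called, 2.7% lower and 4.39% higher. Of all genes at that p, 61.9% were higher in knockdown, and 51.5% with quantile normalization. In bulk RNA, fewer cells of a type and less RNA per cell cannot be told apart.

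Directions were counted in each class. Log2 fold changes are knockdown minus control on log2(FPKM + 1). Among cytosolic genes 18 of 20 were negative, where 45.2% of all genes tested were. The class median was -0.09, where all genes tested had a median of 0.026. With quantile normalization 17 were negative, and Rars was at 0.01. Without knockdown replicate 1 the count was 16 and without knockdown replicate 2 it was 15, where 42.1% and 48.8% of all genes were negative. It was 18 without control replicate 1 and 17 without control replicate 2, where 46.4% of all genes were negative each time. Both knockdown libraries lay below both controls for 9 cytosolic genes and above both for 0, where 16.3% of all genes tested lay below and 22.1% above. Among mitochondrial genes 8 of 15 were negative (10 with quantile normalization), with a class median of -0.04, and the libraries were apart for 2 genes, Ears2 (below) and Aars2 (above). With quantile normalization the order of the class medians turned, with -0.10 for mitochondrial and -0.08 for cytosolic genes. In that setting 51.2% of all genes tested were negative. The difference between the classes was not tested.

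Relative to the control mean, the cytosolic median was -0.08 in the first knockdown library and -0.14 in the second, with 0.0053 and -0.0053 in the control libraries. The mitochondrial median was 0.02 in the first knockdown library and -0.02 in the second, with 0.0032 and -0.0032 in the control libraries. Without knockdown replicate 2 the mitochondrial class median was therefore 0.02, of the opposite sign, and the cytosolic median stayed negative with each of the 4 libraries left out in turn. The summed FPKM of the cytosolic genes was 1813 and 1628 in knockdown, against 1878 and 1865 in control. Without Nars that sum was 1246 and 1192 in knockdown, against 1321 and 1298 in control. The summed FPKM of the mitochondrial genes was 130 and 120 in knockdown, against 127 and 135 in control, so that those groups overlapped.

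**Figure D2:**
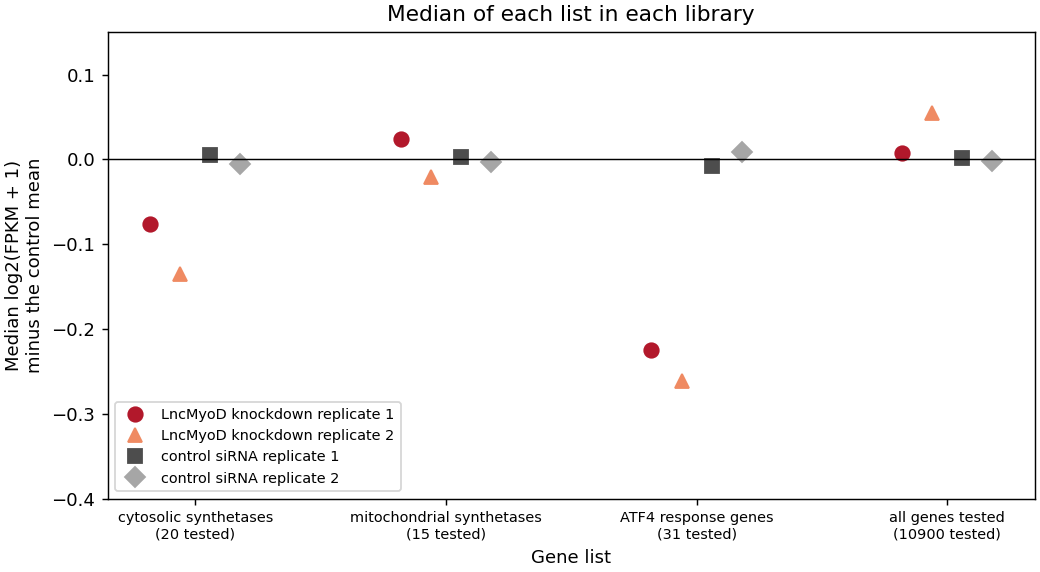
Median over each gene list of log2(FPKM + 1) minus the control mean (vertical axis), for the 2 LncMyoD knockdown libraries (red circle, orange triangle) and the 2 control siRNA libraries (dark square, light diamond). The cytosolic medians in knockdown are -0.08 and -0.14, the mitochondrial ones lie at 0.02 and -0.02, and those of the ATF4 response genes are -0.22 and -0.26.

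The cytosolic gene with the lowest p was Farsb, the beta subunit of phenylalanyl-tRNA synthetase (chromosome 1, 78417975 to 78488897, minus strand, GRCm38). Farsb had 77.6 and 78.5 FPKM in LncMyoD knockdown cells, against 93.7 and 96.4 FPKM in control siRNA cells. The groups lay apart by more than the spread within either, with a log2 fold change of -0.28 ± 0.091 (SE), a 95% interval of -0.50 to -0.06, an unadjusted p of 0.021 and a limma adjusted p of 0.640. The unadjusted p of Farsb was above 0.05 with limma without the trend (0.0911), without control replicate 1 (0.112) and without control replicate 2 (0.158). Its partner Farsa, the catalytic alpha subunit of the same enzyme, had 18.9 and 24.6 FPKM in LncMyoD knockdown cells, against 22.5 and 22.5 FPKM in control siRNA cells. The groups of Farsa overlapped, with a log2 fold change of -0.06 (95% interval -0.45 to 0.33). The ratio of Farsb to Farsa levels was 4.11 and 3.19 in knockdown, against 4.16 and 4.29 in control. On the opposite strand Sgpp2 shares 9.5% of the exonic bases of Farsb, and its own level was 0.0248 to 0.312 FPKM in all 4 libraries.

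Aars, the alanine enzyme (plus strand of chromosome 8, 111033144 to 111057664), had 40.4 and 42.7 FPKM in LncMyoD knockdown cells, against 51.4 and 49.2 FPKM in control siRNA cells. The groups did not overlap, and the log2 fold change was -0.27 ± 0.11 (SE), with an unadjusted p of 0.0423 and a limma adjusted p of 0.692. The unadjusted p of Aars was 0.108 with limma without the trend, 0.0746 without knockdown replicate 1, 0.228 without control replicate 1 and 0.141 without control replicate 2, each above 0.05. Exosc6, a subunit of the RNA exosome, lies on the same strand and shares 14.3% of the exonic bases of Aars. Exosc6 had 21.4 and 4.23 FPKM in LncMyoD knockdown cells, against 6.90 and 16.8 FPKM in control siRNA cells, with no order between the groups. With both rows summed, a setting chosen after the data were seen, the log2 fold change was -0.20 with a limma adjusted p of 0.816 and an unadjusted p of 0.247.

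Qars, which charges glutamine tRNA and is the least abundant cytosolic member, had 5.79 and 6.49 FPKM in LncMyoD knockdown cells, against 8.45 and 7.77 FPKM in control siRNA cells. Its groups did not overlap, and its log2 fold change of -0.35 (95% interval -0.76 to 0.06, limma adjusted p 0.712) was the most negative of the cytosolic class. Cars, the cysteine enzyme, had 37.1 and 34.4 FPKM in LncMyoD knockdown cells, against 42.6 and 40.1 FPKM in control siRNA cells, again without overlap (log2 fold change -0.20, limma adjusted p 0.740). The other cytosolic genes whose groups did not overlap were Eprs, Dars, Gars, Sars and Yars, with log2 fold changes of -0.09 to -0.21. Leaving out 1 library moved some of these by over 1.5 times. Gars stood at -0.03 without control replicate 1 and -0.16 without control replicate 2, Dars at -0.07 without control replicate 1 and -0.08 without knockdown replicate 2, and Yars at -0.04 without knockdown replicate 2 and -0.15 without knockdown replicate 1. Sars, the serine enzyme, had 46.1 and 46.1 FPKM in LncMyoD knockdown cells, against 48.3 and 50.4 FPKM in control siRNA cells. Yars, the tyrosine enzyme, had 43.2 and 40.0 FPKM in LncMyoD knockdown cells, against 44.5 and 44.2 FPKM in control siRNA cells. Gars had 163 and 158 FPKM in LncMyoD knockdown cells, against 180 and 164 FPKM in control siRNA cells. The lower control library of Gars lay above the higher knockdown library by less than the spread within either group.

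In a second set of cytosolic genes 1 knockdown library stood apart from the other. Nars had 566 and 436 FPKM in LncMyoD knockdown cells, against 557 and 567 FPKM in control siRNA cells, so that knockdown replicate 2 was low and replicate 1 lay among the controls. Tars, the threonine enzyme, had 93.9 and 69.9 FPKM in LncMyoD knockdown cells, against 87.7 and 95.8 FPKM in control siRNA cells. Lars, the leucine enzyme, had 142 and 117 FPKM in LncMyoD knockdown cells, against 130 and 139 FPKM in control siRNA cells. In each of these 3 genes knockdown replicate 2 was the lowest library. Their log2 fold changes were -0.18, -0.18 and -0.06, and without knockdown replicate 2 they were 0.01, 0.03 and 0.08. Knockdown replicate 2 was the lowest library for 10 of the 20 cytosolic genes and knockdown replicate 1 for 7.

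The members with positive values were Vars and Wars. Vars, the valine enzyme, had 15.7 and 24.7 FPKM in LncMyoD knockdown cells, against 15.5 and 18.2 FPKM in control siRNA cells. Its log2 fold change of 0.22 (95% interval -0.33 to 0.77) was carried by knockdown replicate 2 and was -0.09 without it. Wars, the tryptophan enzyme, had 22.6 and 22.8 FPKM in LncMyoD knockdown cells, against 21.5 and 23.1 FPKM in control siRNA cells, a log2 fold change of 0.03. The remaining cytosolic genes, Hars, Iars, Kars, Mars and Rars, had log2 fold changes of -0.01 to -0.06, with overlapping groups. Iars had 64.6 and 56.3 FPKM in LncMyoD knockdown cells, against 58.4 and 64.7 FPKM in control siRNA cells. Kars, the lysine enzyme, had 54.9 and 54.1 FPKM in LncMyoD knockdown cells, against 61.8 and 52.6 FPKM in control siRNA cells.

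**Figure D3:**
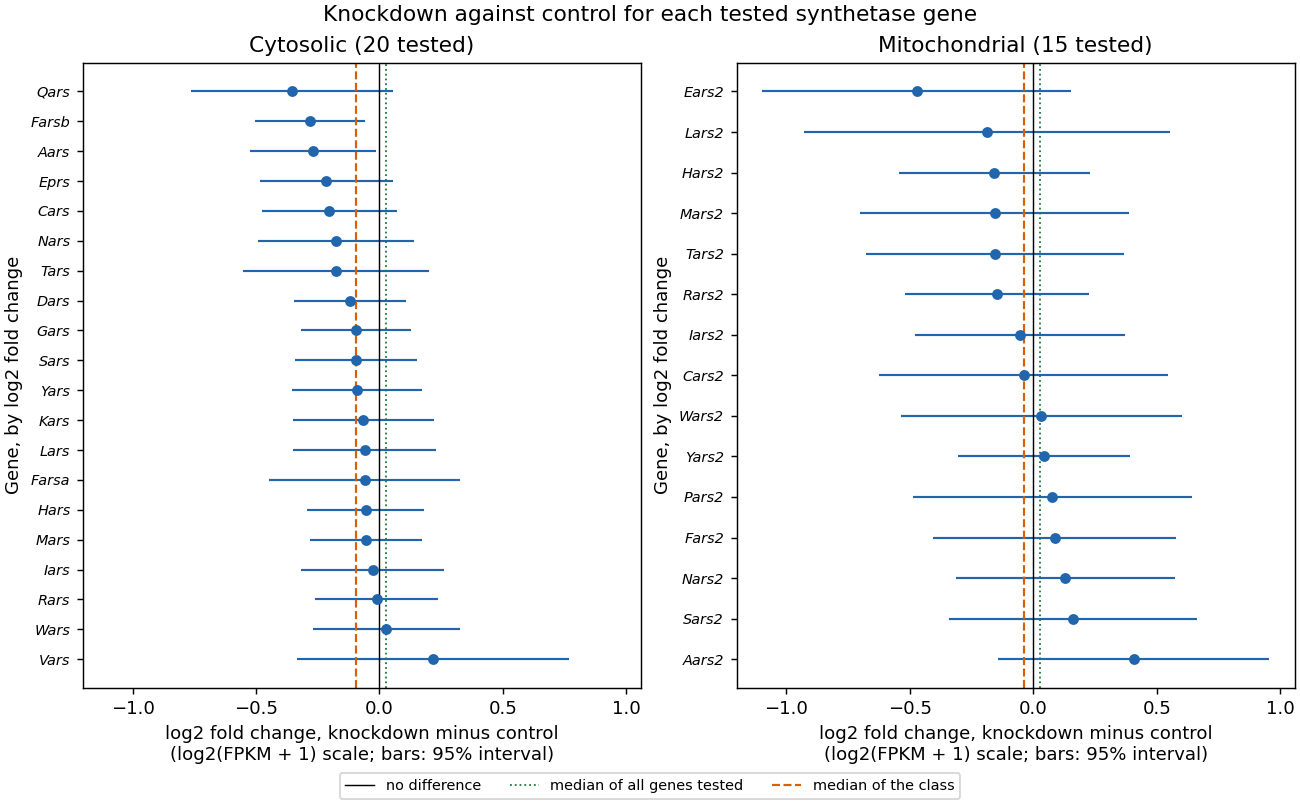
Log2 fold change on the log2(FPKM + 1) scale, LncMyoD siRNA minus control siRNA, of the 20 cytosolic (left) and 15 mitochondrial (right) synthetase genes tested, with 95% intervals from limma; the dashed line is the class median and the dotted line the median of all genes tested. Cytosolic points lie mostly below 0 around -0.09, mitochondrial points lie on both sides, and of the 35 intervals those of Farsb and Aars do not include 0.

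The 8 synthetases of the multi-synthetase complex (Dars, Eprs, Iars, Kars, Lars, Mars, Qars and Rars) all had negative log2 fold changes in the main fit. Rars stood at 0.01 with quantile normalization. Iars and Lars stood at 0.07 and 0.08 without knockdown replicate 2. Kars was at 0.05 without control replicate 1, and Rars at 0.07 without knockdown replicate 1. The median of the 8 was -0.06, with -0.07 in knockdown replicate 1 and -0.15 in knockdown replicate 2. Both knockdown libraries lay below both controls for 3 of the 8 and above both for 0, where 16.3% of all genes tested lay below and 22.1% above. Eprs, the fused enzyme for glutamate and proline, had 36.1 and 33.8 FPKM in LncMyoD knockdown cells, against 42.0 and 39.5 FPKM in control siRNA cells, a log2 fold change of -0.21 with a limma adjusted p of 0.718. Dars had 124 and 117 FPKM in LncMyoD knockdown cells, against 135 and 127 FPKM in control siRNA cells (log2 fold change -0.12). Mars, the methionine enzyme, had 92.8 and 93.8 FPKM in LncMyoD knockdown cells, against 100.3 and 93.6 FPKM in control siRNA cells, a log2 fold change of -0.05. Of the scaffold genes, Eef1e1 had 34.4 and 35.6 FPKM in LncMyoD knockdown cells, against 38.7 and 37.5 FPKM in control siRNA cells, without overlap. Aimp1 and Aimp2 had log2 fold changes of -0.13 and -0.06 with overlapping groups. The 12 cytosolic synthetases outside the complex had a median of -0.10, with 10 negative, and 6 whose groups did not overlap.

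By catalytic fold, the 9 cytosolic genes of class I alone had a median log2 fold change of -0.05 with 7 negative (Rars, 1 of the 7, stood at 0.01 with quantile normalization), and the 10 of class II had -0.11 with 10 negative. In knockdown replicates 1 and 2 the class I medians were -0.06 and -0.13, and the class II medians -0.08 and -0.14. Of the negative genes, Farsa, Iars, Kars, Lars, Nars, Rars and Tars turned positive with 1 or another library left out. Eprs joins both folds and was left out of this split. The split was described and not tested.

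Mitochondrial members had wider errors. The median SE of their log2 fold changes was 0.214, against 0.112 in the cytosolic class and 0.198 over all genes tested, and their levels were lower. Ears2, the mitochondrial glutamate enzyme (minus strand of chromosome 7, 122037213 to 122067263), had 3.763 and 2.189 FPKM in LncMyoD knockdown cells, against 4.02 and 4.83 FPKM in control siRNA cells. Its log2 fold change of -0.47 (95% interval -1.10 to 0.15, limma adjusted p 0.737) was -0.18 without knockdown replicate 2 and -0.76 without knockdown replicate 1, where its unadjusted limma p was 0.0252 and its adjusted p 0.404. Aars2, the mitochondrial alanine enzyme (plus strand of chromosome 17, 45506841 to 45520843), had 4.95 and 4.07 FPKM in LncMyoD knockdown cells, against 2.62 and 3.75 FPKM in control siRNA cells. Its groups did not overlap, and the log2 fold change was 0.41 (95% interval -0.14 to 0.96, limma adjusted p 0.744), which was 0.21 without control replicate 1.

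The other mitochondrial genes had overlapping groups. Rars2 had 45.4 and 41.3 FPKM in LncMyoD knockdown cells, against 42.0 and 54.9 FPKM in control siRNA cells, where control replicate 2 alone was high. Hars2 had 10.8 and 9.65 FPKM in LncMyoD knockdown cells, against 12.4 and 10.7 FPKM in control siRNA cells, a log2 fold change of -0.16. Tars2 had 9.69 and 9.32 FPKM in LncMyoD knockdown cells, against 13.1 and 8.68 FPKM in control siRNA cells, where control replicate 1 alone was high. Lars2, Mars2, Iars2 and Cars2 had log2 fold changes of -0.19, -0.16, -0.05 and -0.04. Sars2, Nars2, Fars2, Pars2, Yars2 and Wars2 had 0.16, 0.13, 0.09, 0.08, 0.04 and 0.03, of which Pars2 and Wars2 turned to -0.0030 and -0.04 with quantile normalization. Iars2 shares 22.9% of its exonic bases with Rab3gap2 on the opposite strand, and with both rows summed its log2 fold change was 0.02. Vars2, which was not tested, had 0.624 and 0.299 FPKM in LncMyoD knockdown cells, against 0.240 and 0.712 FPKM in control siRNA cells. Hars and Hars2, which lie head to head on opposite strands of chromosome 18, share 8% of the exonic bases of Hars and 4.6% of those of Hars2.

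The cytosolic member was the more abundant in all 17 pairs of genes that charge the same amino acid. The ratio of mean FPKM ran from 1.87 for Rars over Rars2 and 2.63 for Yars over Yars2 to 54.0 for Lars over Lars2 and 77.4 for Nars over Nars2. The ratio of Nars to Nars2 was 71.7 and 66.5 in knockdown, against 80.0 and 93.7 in control. For alanine the ratio of Aars to Aars2 was 8.17 and 10.5 in knockdown, against 19.6 and 13.1 in control, the pair whose members had log2 fold changes of opposite sign and groups that did not overlap for either. In 10 of the 16 pairs with both genes tested, the cytosolic log2 fold change was the lower. Farsa and Farsb are both set against Fars2, and Eprs against both Ears2 and Pars2, so the pairs are not all independent.

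**Figure D4:**
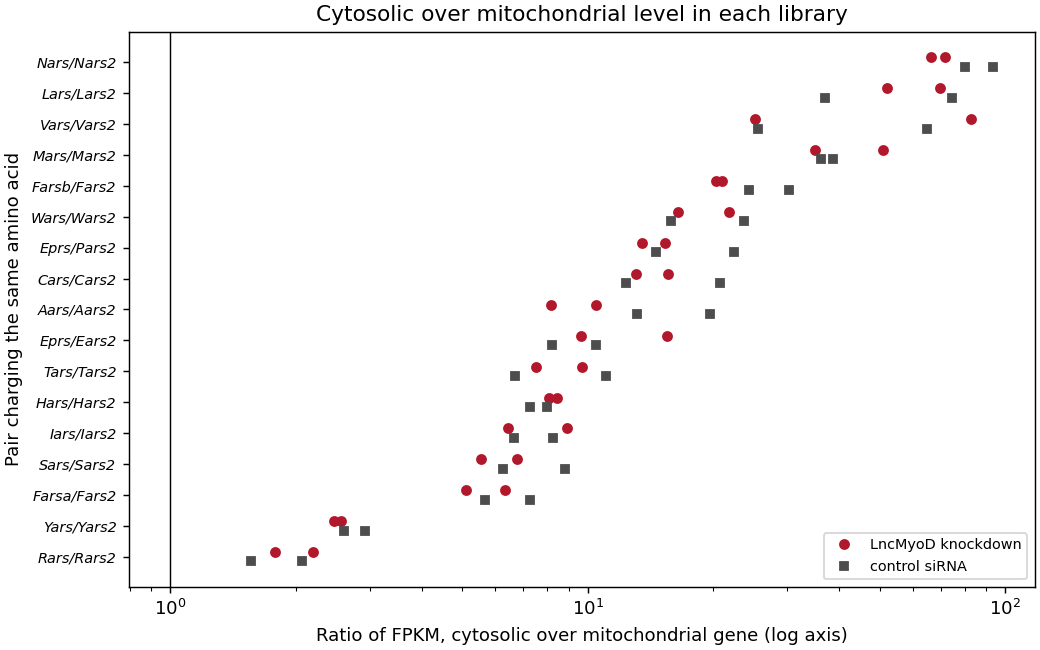
Ratio of cytosolic to mitochondrial FPKM (log axis) in each library for the 17 pairs of synthetase genes that charge the same amino acid; red circles are LncMyoD knockdown and grey squares control siRNA. All ratios are above 1, and Nars/Nars2, at 66.5 to 93.7, has the highest ratio of means.

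The 13 cytosolic synthetases described as ATF4 targets had a median log2 fold change of -0.10, with 11 negative, and the 7 others had -0.06, with 7 negative (Rars, 1 of them, stood at 0.01 with quantile normalization). The order of these medians turned between the knockdown libraries. In knockdown replicate 1 the targets were at -0.06 and the others at -0.09, and in knockdown replicate 2 the targets were at -0.15 and the others at -0.11. The 5 genes with the promoter motif printed or placed above had a median of -0.10 with 5 negative, and the 8 cytosolic genes with a window and no match had -0.11 with 8 negative. The wider list of 32 ATF4 response genes, which holds no synthetase of the 36, had a median of -0.22 over 31 tested members, with 26 negative, and its median was between -0.20 and -0.26 with each library left out. Of these 31 genes, 0 passed the adjusted threshold, 15 had knockdown libraries below both controls and 1 had them above, where 16.3% of all genes tested lay below and 22.1% above. By unadjusted p under 0.05, limma had 5 lower and 1 higher, where 2.7% of all genes tested were lower and 4.39% higher.

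Fgf21, a hormone released on amino acid stress, had 213 and 153 FPKM in LncMyoD knockdown cells, against 285 and 274 FPKM in control siRNA cells, a log2 fold change of -0.63 with a limma adjusted p of 0.582. Slc3a2, the shared chain of amino acid transporters, and Asns, the asparagine synthetase that makes the substrate of Nars, had -0.50 and -0.44, with limma adjusted p-values of 0.523 and 0.595. Slc38a2, a glutamine and alanine transporter, was the 1 gene of the 5 with positive log2 fold changes that had an unadjusted p under 0.05 by limma, with 27.3 and 28.7 FPKM in LncMyoD knockdown cells, against 18.7 and 17.7 FPKM in control siRNA cells. Its log2 fold change was 0.59 with a limma adjusted p of 0.523. Atf4 itself had 69.6 and 45.9 FPKM in LncMyoD knockdown cells, against 50.8 and 85.3 FPKM in control siRNA cells, with no order between the groups. Xpot, the export receptor of tRNA, had 18.02 and 15.47 FPKM in LncMyoD knockdown cells, against 20.9 and 16.8 FPKM in control siRNA cells, with overlap.

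Other genes around tRNA charging were counted in the same fit, and 0 of them passed the adjusted threshold or an unadjusted p of 0.05 by limma. Of all genes tested, 0.055% passed the first and 7.08% the second. The 11 related enzymes, among them the subunits of the mitochondrial glutamine amidotransferase and the proofreading deacylases, had a median log2 fold change of 0.02 with 4 negative. The 15 genes of tRNA maturation and export had -0.0053 with 9 negative. The 7 tested cytosolic elongation factor genes had -0.09 with 5 negative, the 9 mitochondrial translation factors had 0.10 with 3 negative, and the 7 tested eIF2 alpha kinases and partners had 0.08 with 3 negative. Each of these 3 medians differed in sign or size between the knockdown libraries, set against the control mean. That of the cytosolic elongation factors was -0.20 in the first knockdown library and 0.0015 in the second. That of the mitochondrial factors was -0.01 and 0.30, and that of the eIF2 alpha kinases 0.26 and -0.07, in the same order. The related enzymes likewise had 0.14 and -0.09. Mtif3, a mitochondrial initiation factor, had 5.25 and 4.06 FPKM in LncMyoD knockdown cells, against 2.72 and 3.26 FPKM in control siRNA cells (limma adjusted p 0.698). Dtd1, a deacylase that removes D-amino acids from tRNA, had 14.9 and 14.2 FPKM in LncMyoD knockdown cells, against 10.2 and 12.9 FPKM in control siRNA cells (limma adjusted p 0.717).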

How the data were processed

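Polyadenylated RNA was turned into cDNA with the SMART-Seq v4 kit and sequenced as paired reads, per the labels' protocols. Per the submitters' processing notes the build was mm10 and the tools included StringTie 1.3.3 and HISAT2 2.1.0, without their roles. Not given in the sources used here are the annotation release and the use of strand. The authors deposited 1 FPKM value per gene and sample, a unit read from the values, and without strand the reads of overlapping genes cannot be told apart. In genes with 1 exon and 1 transcript, the product of FPKM and length was a whole multiple of 1 base's worth (tolerance 0.1) for 87.5% to 88.3% of values, where chance gives 20%; this gave the relative depth. Read counts of other genes were not derived, so no count model was used.

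A mean of 1 FPKM or more over the samples left 10900 genes, which were tested with limma 3.58.1 (R 4.3.3, mean-variance trend) on log2(FPKM + 1), two-sided, with Benjamini-Hochberg adjustment. On that scale the change of a low gene is understated. Residual degrees of freedom were 2, and the prior added 4.09. The fit was tested on simulated data. Coordinates and shared bases came from GENCODE M21 on GRCm38, in which 54409 identifiers were found and 37 were not. Python 3.11.15, pandas 2.3.3 and matplotlib 3.10.9 made summaries and plots.

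The members and lists were chosen with earlier results of these data known, and lists were described by counts and medians only. All 36 genes were accounted for; of other lists, Atf4, Asns, Xpot, the scaffold genes and up to 3 members with the lowest p were named, and Pax7, Myod1 and the genes overlapping members beside the results they touch. Protein sequences were not used here. Settings tried were another pseudocount, no filter, other scalings, a replicate block, no trend, each library left out, and summed rows of overlapping genes.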

Additional observations from a re-analysis of the deposited data

How the results depend on the processing

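Under each setting run, 0 of the 35 tested genes passed the adjusted threshold, and the lowest limma adjusted p among them was between 0.164 (without the first knockdown library, Nars) and 0.999. The count over all genes tested, 6, was 3 with a replicate block, 0 with no filter on low values, and 5 to 15 with each library left out (15 without the first knockdown library). The count of synthetase genes at an unadjusted limma p under 0.05, 2 of 35, was 1 with the block (Farsb) and 0 without limma's trend. It was 3 with quantile normalization and 3 with no filter on low values, where Qars was added. With the block the limma p of Aars was 0.075. Of all 10900 genes tested, 772 were called at an unadjusted limma p under 0.05 in the main fit, 710 with the block and 829 without the trend. With quantile normalization 742 were called, and with no filter 1508 of 24969 genes. The replicate numbers share only a number, since the labels state no common source and the correlation of deviations was -0.0209, and the block was used only here. With 3 libraries groups overlap less often by construction, and the count of synthetase genes without overlap, 11, was 19 to 25. The cytosolic median was -0.0759 with quantile normalization and ran from -0.1355 to -0.0764 with each library left out. The mitochondrial median was -0.1031 with quantile normalization and -0.0324 to 0.0238 with each library left out. The median of the ATF4 response genes was -0.2461 with a pseudocount of 0.1, -0.2513 with median ratio scaling, -0.2623 with quantile normalization, and -0.2615 to -0.1956 with each library left out. Quantile normalization turned the sign of Rars (0.0118), Pars2 (-0.0030) and Wars2 (-0.0411), and summing Iars2 with Rab3gap2, chosen after seeing the data, gave 0.0193. With each library left out, 11 of 20 cytosolic and 4 of 15 mitochondrial genes had the same sign throughout. The log2 fold changes of the others ranged over Cars2 (-0.2741 to 0.1975), Fars2 (-0.0504 to 0.2253), Farsa (-0.2416 to 0.1220), Iars (-0.1256 to 0.0703), Iars2 (-0.1747 to 0.0698), Kars (-0.1799 to 0.0502), Lars (-0.1968 to 0.0757), Lars2 (-0.5150 to 0.1416), Mars2 (-0.3367 to 0.0238), Nars (-0.3653 to 0.0111), Pars2 (-0.1079 to 0.2629), Rars (-0.0928 to 0.0697), Rars2 (-0.3362 to 0.0425), Sars2 (-0.0265 to 0.3501), Tars (-0.3864 to 0.0338), Tars2 (-0.4280 to 0.1176), Vars (-0.0924 to 0.5276), Wars (-0.0234 to 0.0801), Wars2 (-0.0942 to 0.1609) and Yars2 (-0.0346 to 0.1209). The cause was not tested in any of these.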
